A study of Mus musculus with 39 samples.

Results

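The respiratory chain of the mitochondrion was followed in cells of mouse brown fat during a diet time course. Members were the genes whose symbol matched the naming of the nuclear-encoded subunits of complexes I to V (Ndufa, Ndufb, Ndufc, Ndufs and Ndufv genes, Sdha to Sdhd, Uqcr genes, Cox4 to Cox8 genes and Atp5 genes). The rule used names only and no measured value. It found 83 symbols on 110 probes among 29411 symbols, and 82 of them had a probe that passed the filter on dim probes, among 24723 genes in all. The exception was Cox7b2, a cytochrome c oxidase subunit known from testis, whose probe was well above background on 4 arrays. The 82 members were 35 of complex I, 4 of complex II, 6 of complex III, 17 of complex IV, 16 of complex V and 4 genes that the naming caught but that are not subunits. These 4 were Cox4nb (now named Emc8, of the endoplasmic reticulum membrane complex), Cox7a2l (a factor of supercomplex assembly), Atp5s and Atp5sl. Ndufa4 was counted with complex IV, to which its protein is now assigned.

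RNA was hybridised to 39 one-colour Agilent arrays. C57BL/6J mice weaned at 3 to 4 weeks of age were divided into 5 groups of 30 animals. LFC received a diet with 10% of calories from fat. HFC received a high fat and high sucrose diet with 60% of calories from fat. HF5, HF20 and HF75 received the HFC diet with 5, 20 or 75 µg of the botanical formulation KAL-1, so all 3 carry the high fat diet as well. There were 10 arrays of LFC, at Day 1, 6, 10 and 14 and at Week 0, 3, 9, 12, 15 and 18. HFC had these time labels and Week 6, which makes 11 arrays. Each of the 3 KAL-1 diets was measured on 6 arrays, at Week 3, 6, 9, 12, 15 and 18. Each diet had 1 array at each time label, and 5 animals per group were sacrificed every 3 weeks. Whether their RNA was pooled was not given in the sources used here. P-values therefore measure the spread between arrays of different time labels and not the spread between animals.

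The labels call the samples infiltrating macrophages of brown fat, of the stromal vascular fraction that remains once fat cells are removed. Of the 14 listed macrophage genes, 8 were well above background on all 39 arrays. Among them were Emr1 (the macrophage surface marker F4/80) and Cd68 (a lysosomal protein of macrophages). Genes of fat cells were measured as well. Of the 14 listed genes of general adipocytes, 13 were well above background on all 39 arrays, and of the 15 of brown adipocytes 8 were. Adipoq (the adipocyte hormone adiponectin) and Ucp1 (the uncoupling protein of brown adipocytes) were so on every array, and each saturated the scanner on 7. In bulk RNA, more cells of a type and more RNA per cell cannot be told apart.

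Brown fat is among the tissues richest in mitochondria. Electrons enter the chain at complex I, which oxidises NADH, or at complex II, which oxidises succinate, and pass by way of complex III to complex IV, which reduces oxygen. Complexes I, III and IV pump protons, complex V uses the gradient to make ATP, and Ucp1 lets protons return without ATP so that the energy leaves as heat. Complex IV has subunits in several tissue forms. Cox6a2, Cox7a1 and Cox8b are the forms of heart and skeletal muscle, Cox7a1 and Cox8b are also known from brown fat, and Cox6a1, Cox7a2 and Cox8a are the widely expressed counterparts.

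The promoters of both brown fat forms and of their counterparts are shown because the results on tissue forms turn on these 4 genes. Each holds 300 bases around the RefSeq transcript start on GRCm38.p6, 5′ to 3′ on the strand of the gene, and capitals mark motif matches. Cox7a1 lies at chr7:30183921-30184220 (plus strand), Cox7a2 at chr9:79759804-79760103 (minus), Cox8b at chr7:140900397-140900696 (minus) and Cox8a at chr19:7217567-7217866 (minus).
Cox7a1: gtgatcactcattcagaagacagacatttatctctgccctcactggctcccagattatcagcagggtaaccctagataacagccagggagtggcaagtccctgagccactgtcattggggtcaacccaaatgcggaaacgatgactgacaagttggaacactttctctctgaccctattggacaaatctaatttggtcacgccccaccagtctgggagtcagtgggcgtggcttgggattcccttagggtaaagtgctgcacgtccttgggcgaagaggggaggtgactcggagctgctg
Cox8b: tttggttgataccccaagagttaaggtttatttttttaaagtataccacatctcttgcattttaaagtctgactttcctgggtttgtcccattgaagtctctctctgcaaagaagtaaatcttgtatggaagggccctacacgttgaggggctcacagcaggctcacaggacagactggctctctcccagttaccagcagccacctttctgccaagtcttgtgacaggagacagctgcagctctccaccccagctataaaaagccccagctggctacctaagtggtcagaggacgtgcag
Cox7a2: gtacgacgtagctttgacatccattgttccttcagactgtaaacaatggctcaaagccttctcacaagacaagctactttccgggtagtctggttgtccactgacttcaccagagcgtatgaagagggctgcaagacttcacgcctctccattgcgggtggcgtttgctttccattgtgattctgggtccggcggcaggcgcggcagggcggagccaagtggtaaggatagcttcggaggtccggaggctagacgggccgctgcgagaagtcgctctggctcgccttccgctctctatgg
Cox8a: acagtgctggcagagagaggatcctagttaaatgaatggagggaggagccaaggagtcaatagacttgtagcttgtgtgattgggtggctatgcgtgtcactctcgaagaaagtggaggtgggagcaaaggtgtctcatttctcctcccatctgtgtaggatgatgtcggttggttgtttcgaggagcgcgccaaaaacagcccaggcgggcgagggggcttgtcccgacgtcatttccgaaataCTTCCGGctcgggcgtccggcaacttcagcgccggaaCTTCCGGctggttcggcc
Motifs were searched on both strands as GCGCATG (part of the site bound by NRF1), CCGGAAG (ETS factors such as GABPA), AAGGTCA (estrogen-related receptors) and TATTTATA (MEF2), none of which overlapped another in these 4 promoters. The E-box CANNTG was only counted. Of the 4 promoters, Cox8a held CCGGAAG at -5 and 33 from the start, read on the other strand in the line above, and Cox7a1, Cox7a2 and Cox8b held none of the 4 marked motifs. Over the 68 promoters of the 64 members with an entry, the shares with a match were 17.6% for GCGCATG, 22.1% for CCGGAAG, 11.8% for AAGGTCA, 0% for TATTTATA and 67.6% for CANNTG. Over all 32851 promoters of the table, the shares were 3.91%, 8.86%, 4.72%, 1.7% and 72.3%.

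Nearly all members were bright genes. Levels are log2 of the processed signal minus the 75th percentile of the array, so 0 is the 75th percentile, and levels of different genes are not compared since their probes differ. Of the 82 members, 71 were well above background on all 39 arrays and 80 on 37 or more. The exceptions were Cox4i2 (the lung form of subunit 4), on 11 arrays, and Cox8c (a testis form of subunit 8), on 6. The filter on dim probes asked for 6 arrays of any diet, so 80 of the 82 members passed it whatever the diet.

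The brightness of the arrays varied widely and bears on every value below. The 75th percentile ran from 18.1 to 3974 intensity units with a median of 129.9. On 8 arrays, with 75th percentiles of 310.3 to 1289, between 13 and 61 members reached the ceiling of the scanner, while at most 1 did on each of the other 31. These were HFC Week 6 (40 members), HFC Week 9 (53), HF5 Week 9 (59), LFC Week 12 (61), HF20 Week 12 (48), HF5 Week 15 (51), HF75 Week 15 (49) and LFC Week 18 (13). On them the normalized level of a bright member is a lower bound. Of the 82 members, 20 were never saturated. On the HF20 Week 15 array 71.4% of spots were flagged as outliers and 67 members kept a value. Flagged spots still counted in the 75th percentile of an array, so the levels on HF20 Week 15 are scaled largely by flagged spots. The flagged share was 18.6% on HF5 Week 12 and 11.1% on HFC Week 12.

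The complexes shifted together from array to array. The shift of a member is its level minus its own median over the arrays. On the 31 arrays with few saturated members, the median shift over the members ran from -3.84 on HF20 Week 15 to 1.24 on HF20 Week 9. The other arrays with shifts under -1 were HF5 Week 12 (-1.37) and HFC Week 12 (-1.05). These 3 are the arrays with over 10% of spots flagged as outliers. On HF20 Week 9 every complex was above its usual level, at 1.26 (complex I), 1.76 (II), 1.48 (III), 1.23 (IV) and 0.99 (V). On the 8 saturated arrays the complexes separated. Complex II stood at 2.05 to 2.68, complex I at 1.24 to 1.98, complex III at 0.31 to 1.19, complex V at 0.19 to 0.80 and complex IV at -0.03 to 0.95. The members that were brightest elsewhere had the least room below the ceiling there, and this part of the difference between complexes was not tested.

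**Figure D1:**
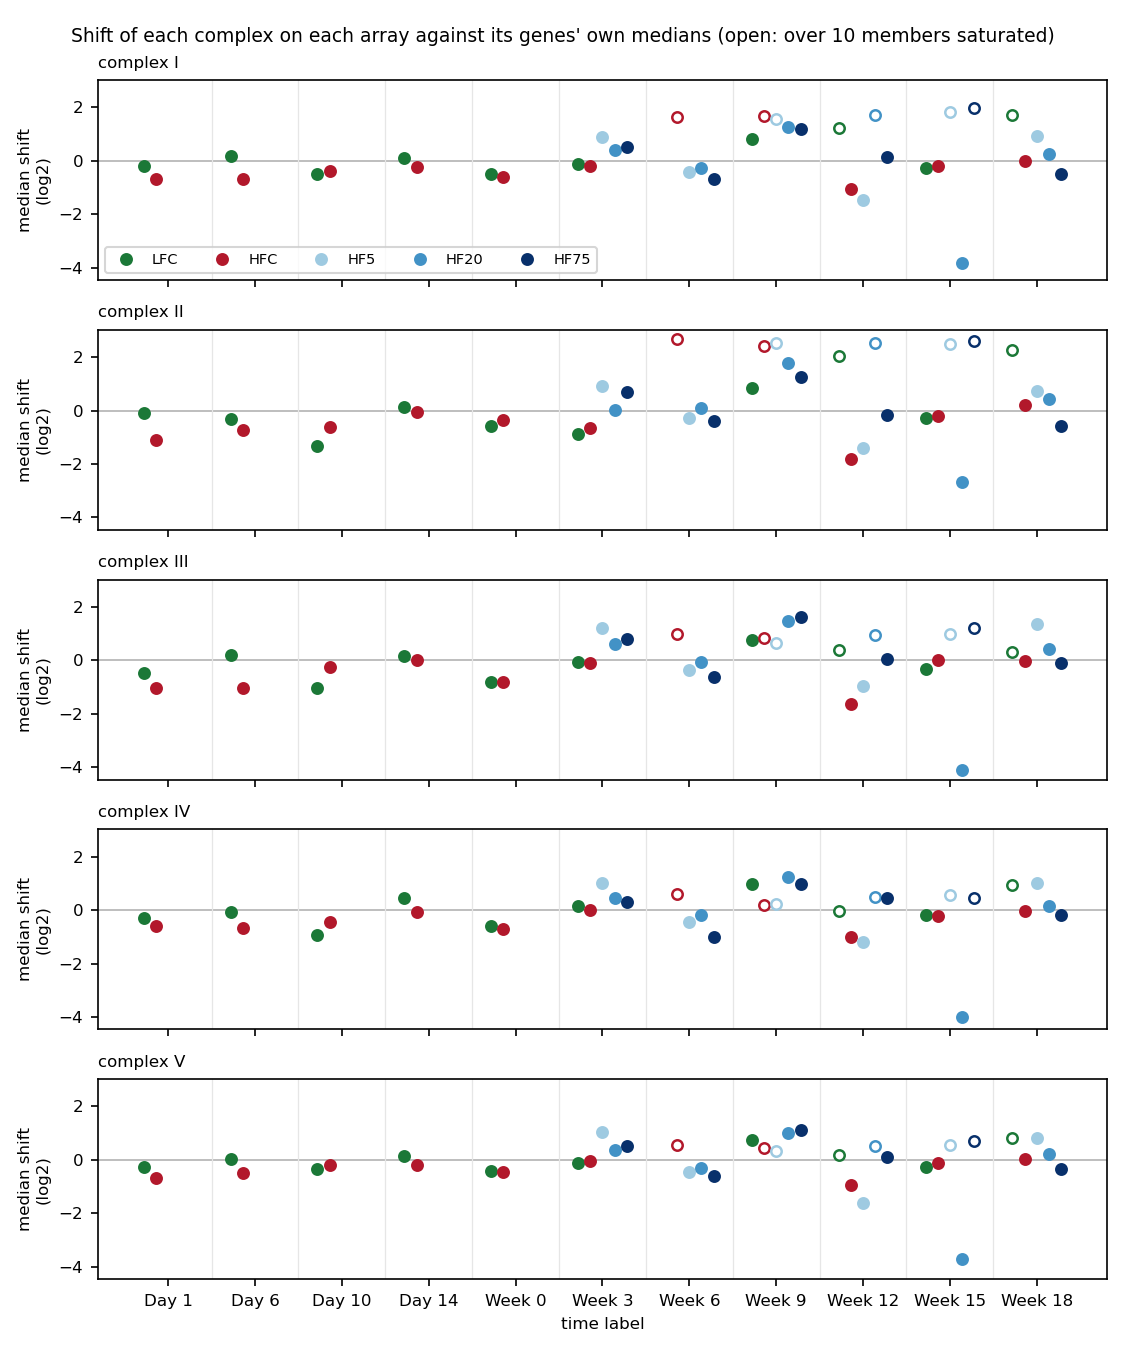
Median shift (log2) of the members of each complex on each array, by time label and diet, with 0 at each gene's own median over the 39 arrays. Open points are the 8 arrays with over 10 saturated members, where complex II (2.05 to 2.68) stands above complex IV (-0.03 to 0.95), and HF20 Week 15 lies lowest in every panel.

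The shift followed the brightness of the array on the 31 arrays with few saturated members. Over all 39 arrays the relation was weak, with r = -0.22 and rho = -0.11 (permutation p = 0.187 and 0.52). For the never saturated members r over the 39 was 0.15. The 8 arrays set aside, picked by the members' own saturation, were bright and had high shifts. Over the 31 arrays the median shift of the members fell as the log2 of the 75th percentile rose, with Pearson's r = -0.87 and Spearman's rho = -0.80 (permutation p = 1e-05 for both, the smallest that 100000 resamples can give, and 1.667e-05 and 2.5e-05 after adjustment over 20 sets of genes). The slope was -0.49 log2 units per doubling of the 75th percentile. Without the 2 arrays farthest from the median brightness r was -0.78, and without HF20 Week 15 alone it was -0.80. Within LFC it was -0.90 (8 arrays, rho = -0.90, exact permutation p = 0.0026 and 0.00456) and within HFC -0.86 (9 arrays, rho = -0.87, exact permutation p = 0.00326 and 0.00451). Since the 75th percentile is subtracted from each level, it is part of both quantities. Before subtraction, the log2 signal of the members rose by 0.51 per doubling. The same r was -0.87 for 14 genes of the citric acid cycle, -0.83 for assembly factors and carriers of the chain, -0.83 for general adipocyte genes, -0.76 for brown adipocyte genes and -0.85 for erythroid genes. It was -0.29 for macrophage, -0.07 for fibroblast and -0.10 for endothelial genes. The sign of the last pair turned without HF20 Week 15 (0.26 for both).

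**Figure D2:**
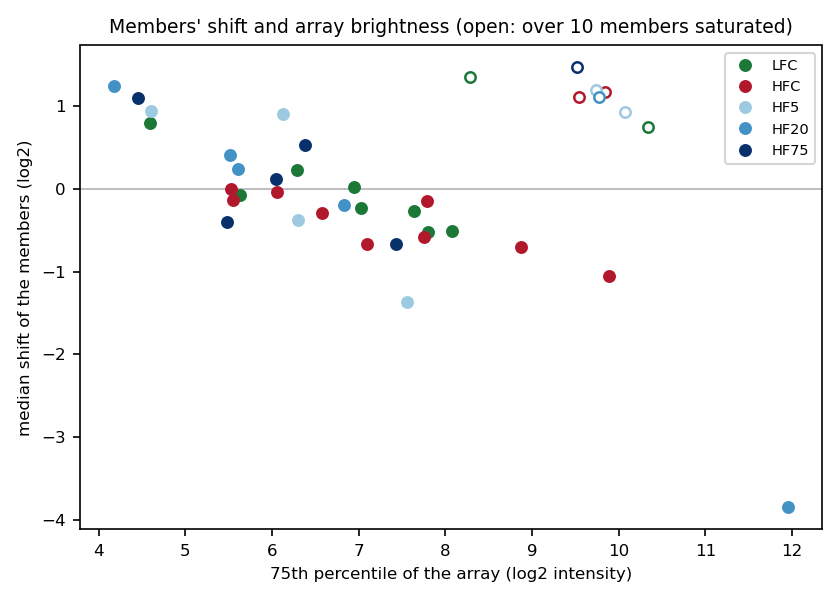
Median shift of the members (log2) against the log2 of the 75th percentile of the array, 1 point per array, coloured by diet. The 31 filled points fall with brightness (r = -0.87), and the 8 open points, with over 10 saturated members, lie at 0.74 to 1.46, while the highest filled point is at 1.24.

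Diet effects were asked of 1 additive limma fit of diet and time label over all 39 arrays and 34043 probes. HFC minus LFC is the effect of the high fat diet, and the 3 doses were each set against HFC. No member passed an adjusted p of 0.05 in any of these 4 comparisons, where 0% of all probes passed in HFC minus LFC, 0% in HF5 minus HFC, 0% in HF20 minus HFC and 0% in HF75 minus HFC. At an unadjusted limma p under 0.05 there were also 0 members in each, against 959, 498, 907 and 1210 probes. The methods' t-test with the time labels as replicates gave 4, 0, 0 and 0 members and 1284, 228, 417 and 765 probes at an unadjusted p under 0.05, and none after Benjamini-Hochberg adjustment. The comparisons with the doses share the HFC arrays.

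Between HFC and LFC the median difference of the 82 members was -0.27 log2 units, against 0.05 over all probes, and 12 members were above 0. By complex it was -0.30 for I, -0.12 for II, -0.25 for III, -0.28 for IV and -0.22 for V. At single time labels the median ran from -1.89 at Week 12, where 61 members were saturated on the LFC array, to 0.38 at Week 9, where 53 were saturated on the HFC array. The fitted median was -0.07 without Week 12, -0.05 without arrays with over 10% of outlier spots, -0.13 without Week 18 and 0.08 without the 9 arrays titled BA or BAT, where 47 members were above 0. The members with the smallest p, which did not pass, were Ndufb6 and Ndufv3 (accessory subunits of complex I) and Uqcrb (a subunit of complex III). The fitted difference of Ndufb6 was 1.41 ± 0.74 (SE, adjusted limma p = 0.9995), that of Ndufv3 0.98 ± 0.57 and that of Uqcrb 0.97 ± 0.62. Without LFC Day 1 and LFC Week 18, a pair of arrays described further on, they were 0.27, 0.17 and -0.12.

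For HF5 minus HFC the median was 0.25, against -0.03 over all probes, with 73 members above 0. The values by complex were 0.29, 0.30, 0.45, 0.22 and 0.08 from I to V. The smallest p belonged to Atp5k (the small e subunit of complex V, 0.93 ± 0.62 SE), Cox8b (1.43 ± 1.05) and Cox7a1 (0.96 ± 0.82), none past the threshold. Without the Week 15 arrays the median was -0.03, and without the arrays titled BA or BAT it was -0.14.

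For HF20 minus HFC the median was -0.16, against -0.02 over all probes, with 22 members above 0. It was -0.16 for complex I, 0.27 for II, -0.03 for III, -0.16 for IV and -0.38 for V. At Week 15, where the HF20 array was the one with 71.4% flagged spots, the median of 67 members was -3.69, and without that time label the fitted median was 0.32. The Week 12 array grouped as HF20 by its name carries a diet label without KAL-1, and without it the median was -0.58, with 12 members above 0. The smallest p belonged to Cox7a2l (-0.78 ± 0.49 SE), Atp5g3 (a c subunit of the rotor of complex V, -0.49 ± 0.41) and Cox4i2 (0.87 ± 0.75), none past the threshold.

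For HF75 minus HFC the median was 0.16, against 0.05 over all probes, with 63 members above 0, and it was -0.14 without the Week 15 arrays and -0.27 without the arrays titled BA or BAT. Complex III (0.51) and IV (0.38) had the higher medians, against 0.10 for I, 0.07 for II and 0.23 for V. The smallest p belonged to Cox7a1 (1.23 ± 0.82 SE), Cox8b (1.37 ± 1.05) and Uqcrq (a small subunit of complex III, 0.72 ± 0.56), none past the threshold. In the comparisons of all 3 doses with HFC, the HFC Week 12 array counts among the controls, and there Cox7a1 and Cox8b were at their lowest.

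**Figure D3:**
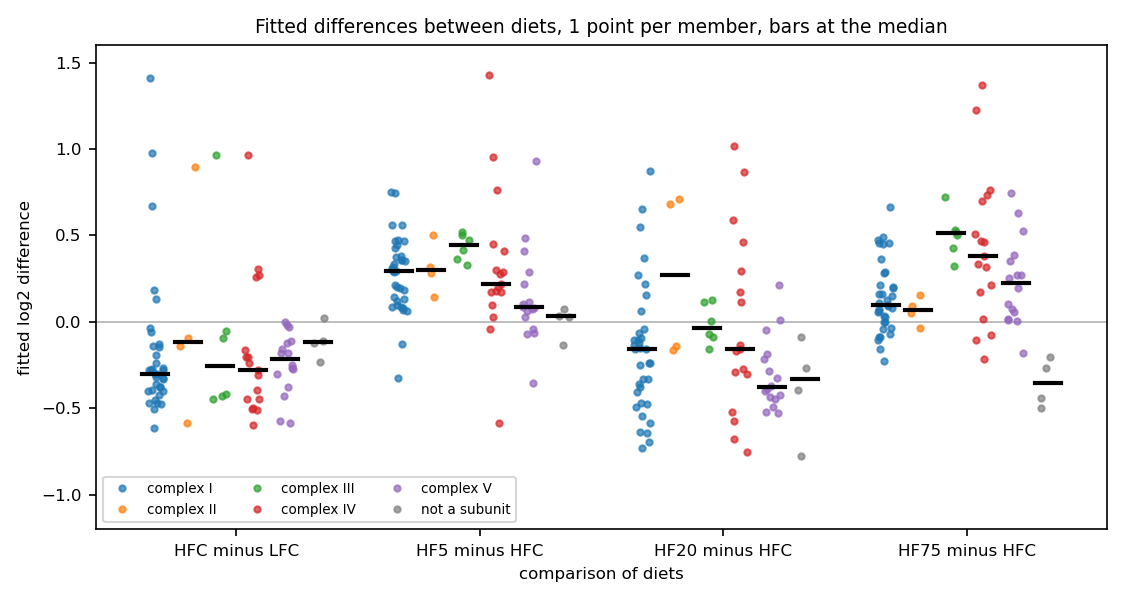
Fitted log2 difference of each of the 82 members in the 4 comparisons of diets, by complex, with black bars at the median of a complex. The medians lie between -0.38 (complex V, HF20 minus HFC) and 0.51 (complex III, HF75 minus HFC), and no point passed the test.

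Trends over dose and time were asked as well. Over the dose rank (HFC, HF5, HF20, HF75) at Week 3 to Week 18, no member passed and 0% of all probes did. At an unadjusted limma p under 0.05 there were 0 members and 2395 probes. The median slope of the members was 0.0069 log2 units per rank, against 0.015 over all probes, with 43 members above 0. Cox7a1 (0.42 ± 0.28 SE), Atp5b (the catalytic beta subunit of complex V, 0.26 ± 0.20) and Cox4i2 (0.32 ± 0.25) had the smallest p.

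Over time, in the 21 arrays of LFC and HFC, no member passed and 0% of all probes did. At an unadjusted limma p under 0.05 there were 20 members and 4057 probes. The median slope was 0.13 log2 units per doubling of the days, against -0.05 over all probes, and 74 members were above 0. By complex it was 0.14 for I, 0.27 for II, 0.15 for III, 0.07 for IV and 0.10 for V. Atp5k had the smallest p (0.36 ± 0.08 SE, adjusted limma p = 0.147), and the next were Ndufb3 (0.23 ± 0.07) and Ndufs6 (0.26 ± 0.09), subunits of complex I. Atp5k passed with array weights (adjusted limma p = 0.0273). Of the 21 arrays, 4 had over 10 saturated members, all at Week 6 or later. Without the saturated arrays the median slope was 0.05.

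The widest spread among members was that of the muscle form Cox6a2, with an SD of 2.42 log2 units over the 39 arrays. In complex IV the narrowest was Cox6b2 (a testis form of subunit 6b), at 0.72. In complex I, Ndufb6 had the widest spread (2.30) and Ndufb11 the narrowest (0.84). In complex II these were Sdhc, a membrane anchor (1.81), and Sdhd, the other anchor (1.15). In complex III they were Uqcrb (1.87) and Uqcrh (0.91), and in complex V Atp5k (1.44) and Atp5g3 (0.71). The ceiling of the scanner limits the spread of members that reached it, among them Ndufb11 on 8 arrays, Sdhd on 7, Uqcrh on 8 and Atp5g3 on 6. Over the 31 arrays with few saturated members the narrowest of complex I was Ndufb5 (0.54, against 0.89 for Ndufb11), and the widest of all members were Cox8b (2.19) and Cox6a2 (2.17).

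The lowest values of Ndufb6, Sdhc and Uqcrb came from the same pair of arrays. On LFC Day 1 Ndufb6 was at -4.58 and on LFC Week 18 at -3.07, against 0.40 to 6.39 on the other arrays. Sdhc was at -2.51 and -2.40 on them, against 0.65 to 5.24. Uqcrb was at -2.93 and -1.22, against 2.50 to 6.31. Ndufv3 was at -2.55 and -1.16 (1.50 to 5.47 elsewhere), and Cox6c, a subunit of complex IV, at 0.40 and -0.47 (1.92 to 6.81 elsewhere). The values on both arrays lay below those of every other array in all 5 genes.

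These 5 were all the members over 3 log2 units below the array's own median shift on both arrays, of 71 with a value on both. The median shift of the members on LFC Day 1 was -0.23 and on LFC Week 18 was 1.34, so the typical member was not low there. On LFC Week 18, where 74 members kept a value, 5 others were as far below, namely Cox7c, Cox8b, Cox8c, Ndufa2 and Ndufb2. Both other probes of Ndufv3 were not low, at 1.04 and 0.35 on LFC Day 1 and 3.96 and 3.26 on LFC Week 18, so the drop belongs to 1 of the 3 probes of that gene. Of 33561 kept probes with a value on both arrays, 364 (1.08%) were over 3 log2 units below their own median on both. The arrays were scanned on different dates, and their difference from the others has no repeat.

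**Figure D4:**
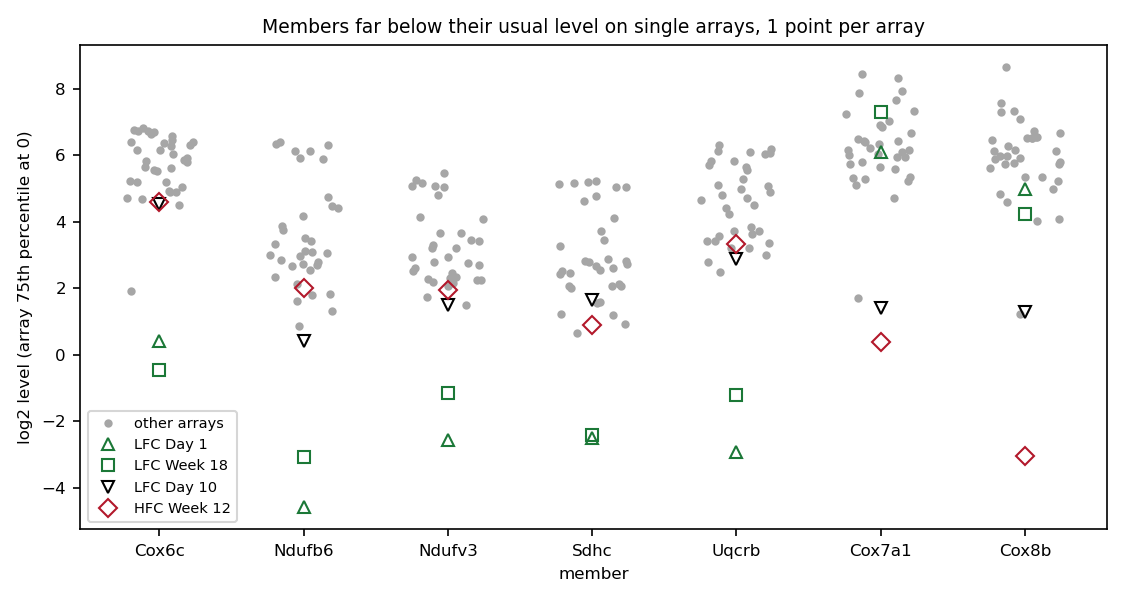
Level (log2, with the 75th percentile of the array at 0) of 7 members on each array. LFC Day 1 and LFC Week 18 (green triangles and squares) lie far below the rest for Cox6c, Ndufb6, Ndufv3, Sdhc and Uqcrb, while LFC Day 10 and HFC Week 12 (black triangles and red diamonds) do so for Cox7a1 and Cox8b, along with HF20 Week 15 (grey, 1.72 and 1.24).

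Cox7a1 and Cox8b, the forms known from muscle and brown fat, were low on another pair of arrays, as was the muscle form Cox6a2. Over the LFC arrays the level of Cox7a1 had a lowest value of 1.40, a median of 6.03 and a highest value of 7.65. Over HFC these were 0.38, 6.02 and 6.48, over HF5 5.28, 6.09 and 7.94, over HF20 1.72, 6.60 and 8.44, and over HF75 5.36, 6.66 and 8.33. The groups overlapped, and the lowest values were those of HFC Week 12 and LFC Day 10.

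Cox8b ran from 1.29 over a median of 5.56 to 7.09 in LFC and from -3.05 over 5.63 to 6.51 in HFC. In HF5 it ran from 4.84 over 6.33 to 7.32, in HF20 from 1.24 over 6.55 to 8.64, and in HF75 from 4.58 over 6.51 to 7.57. Its lowest value was again HFC Week 12, and HF20 Week 15 (1.24), where all complexes were low, stood beside LFC Day 10 (1.29). The counterpart Cox8a stood at 6.05 on LFC Day 10, within the range of the other LFC arrays, and Cox7a2 had no value there. On HFC Week 12, Cox8a (5.04) and Cox7a2 (3.80) were at their lowest of the HFC arrays, against HFC medians of 5.71 and 4.46. Cox6a1 was saturated on both arrays, so its values there (7.56 and 6.11) are lower bounds and have no rank.

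Ucp1 was low on the same pair of arrays, at -3.16 on LFC Day 10 and -3.18 on HFC Week 12. Adipoq was at 4.16 and 2.72 there. The median shift of the 15 brown adipocyte genes was -2.61 and -3.53, against -1.72 to 3.14 on the other 37 arrays. That of general adipocyte genes was -0.09 and -2.04, and that of macrophage genes -0.35 and 2.13. Skeletal muscle genes stood at -3.40 and -2.99, against -5.92 to 3.55 on the other 37 arrays. Cox6a2 was at -3.05 and -2.88, against a median of 1.74 over all arrays, and it was also low on LFC Week 0, HFC Week 0 and HF5 Week 9. The part of cell content in the result was not tested.

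Across arrays Cox7a1 and Cox8b followed Ucp1, and Cox6a2 followed Ckm (muscle creatine kinase). Over 39 arrays r between Cox8b and Ucp1 was 0.93 (rho = 0.87) and between Cox7a1 and Ucp1 0.90 (rho = 0.80). Between Cox6a2 and Ckm it was 0.85 (rho = 0.82, 38 arrays). Each of these 6 values had a permutation p of 1e-05, the smallest possible, and an adjusted p of 4e-05 over 12 relations. Without the 2 arrays farthest from the marker's median r was 0.89, 0.79 and 0.80. On the 31 arrays with few saturated members it was 0.93, 0.93 and 0.87. With the brightness of the array held constant on these arrays it was 0.87, 0.90 and 0.84. Within the diets r ran from 0.90 to 0.98 for Cox8b and from 0.84 to 0.99 for Cox7a1. For Cox6a2 and Ckm it ran from 0.71 to 0.94 in the 4 diets with 6 or more values.

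The counterparts were set against Ucp1 in the same way. Over all arrays r with Ucp1 was 0.41 for Cox6a1 (-0.18 with quantile normalization; adjusted permutation p = 0.0185), 0.52 for Cox7a2 (0.0149) and 0.46 for Cox8a (0.0185). On the 31 arrays it was 0.63, 0.65 and 0.50, with rho of 0.73, 0.79 and 0.74 and, without the 2 arrays farthest from the median of Ucp1, r of 0.77, 0.75 and 0.81. With brightness held constant r was 0.15, 0.02 and -0.14 on the 31 arrays and 0.00425, 0.54 and 0.31 on all arrays. Within the diets r ran from 0.21 to 0.88 for Cox6a1, from 0.22 to 0.90 for Cox7a2 and from 0.12 to 0.96 for Cox8a. Each was lowest in LFC and highest in HF20. For Cox8a it was also 0.94 in HF5 and 0.86 in HF75, near the values of the tissue forms. The difference between the coefficients was not tested. With Ckm, r was -0.11 for Cox6a1, 0.40 for Cox7a2, 0.22 for Cox8a, 0.32 for Cox7a1 and 0.41 for Cox8b, and Cox6a2 with Ucp1 gave 0.44. Of these, Cox7a2 and Cox8b with Ckm and Cox6a2 with Ucp1 passed the adjusted threshold (adjusted permutation p = 0.0188, 0.0185 and 0.0149). On the 31 arrays with brightness held constant these 3 were 0.12, 0.16 and 0.24, and Cox6a2 with Ucp1 was 0.21 over all arrays without the 2 farthest.

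By likeness over the 31 arrays, the member nearest to Cox7a1 was Cox8b (r = 0.97), followed by Uqcrfs1, the Rieske protein of complex III (0.88), and Sdhd (0.86). The arrays share brightness, which raises all such values. Cox6a2 was compared with the members and with the markers and regulators named here, and not with all genes. Of these the nearest were Acta1, the actin of skeletal muscle (0.89), and Ckm (0.87), both chosen as muscle markers. Its nearest member was Cox7a1 (0.66). On HF5 Week 9 neither Cox6a2 nor Ckm was well above background. Cox6a2 was well above it on the other 38 arrays and Ckm on 32.

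**Figure D5:**
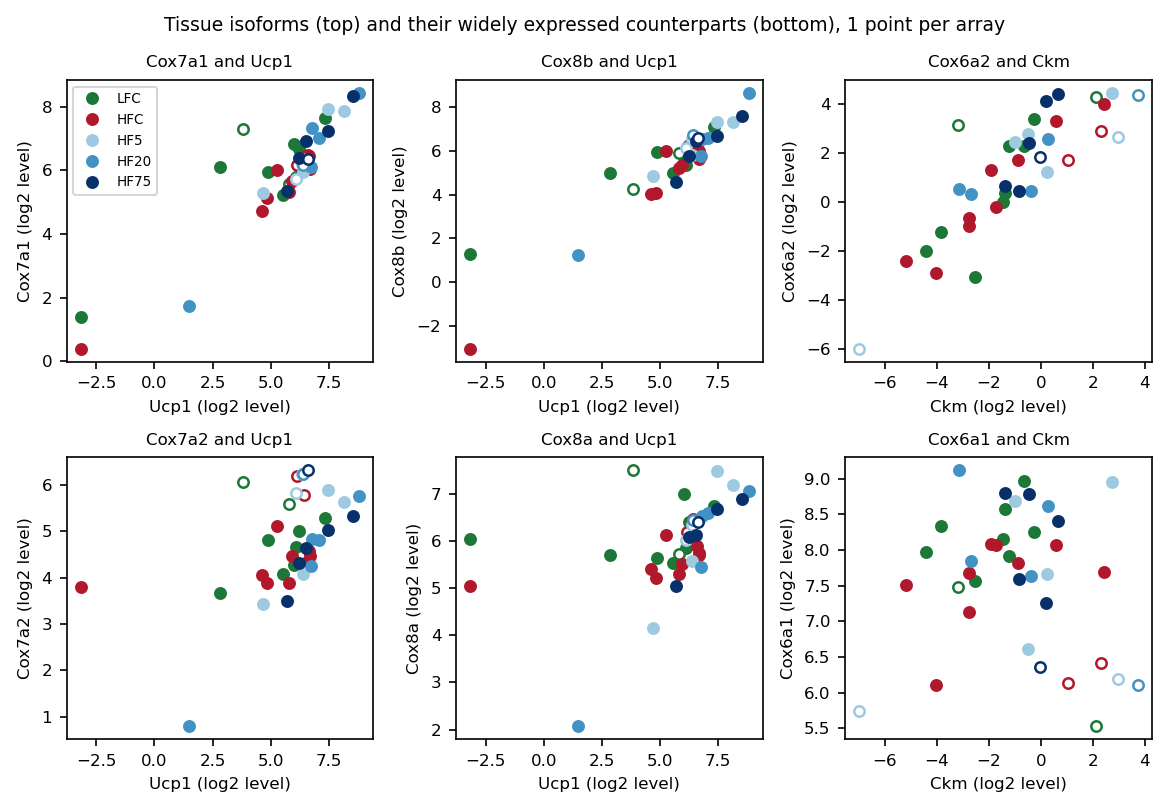
Level (log2, 75th percentile at 0) of the tissue forms (top) and their counterparts (bottom) against Ucp1 or Ckm, 1 point per array, open where over 10 members were saturated. Cox7a1 (0.38 and 1.40) and Cox8b (-3.05 and 1.29) are low together with Ucp1 on HFC Week 12 and LFC Day 10, where Cox8a stands at 5.04 and 6.05, and Cox6a2 rises with Ckm (r = 0.85) while Cox6a1 does not (r = -0.11).

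Differences between diets were also asked of the balance between a tissue form and its counterpart, and none passed. In 15 exact permutation tests that exchanged diets or titles within time labels, the smallest p was 0.0938 (exact, two-sided), for Cox7a1 minus Cox7a2 in HF20 minus HFC, where 0.0312 was the smallest possible. With 6 time labels the 9 dose tests could not pass by themselves, since all 9 at that p would give an adjusted 0.0521. The values include time labels at which one or both genes of a pair were saturated. The difference there was 1.38 ± 1.52 log2 units (SD over 6 time labels), above 0 at 5 of 6, and its adjusted exact p was 0.938. Cox7a1 minus Cox7a2 was -0.81 ± 1.49 for HFC minus LFC over 9 time labels (above 0 at 4), 1.01 ± 2.34 for HF5 minus HFC (3 of 6) and 1.61 ± 2.52 for HF75 minus HFC (4 of 6). Cox8b minus Cox8a was -0.03 ± 3.38, 1.49 ± 3.58, 1.51 ± 3.47 and 1.35 ± 3.49 in the order HFC minus LFC, HF5, HF20 and HF75 minus HFC. Cox6a2 minus Cox6a1 was -0.01 ± 3.50, -0.69 ± 4.21, -0.73 ± 4.26 and -0.20 ± 3.88. The SD over time labels exceeded the size of each of these means. The dose values of Cox8b minus Cox8a rest on HFC Week 12. Without LFC Day 10 and HFC Week 12 they were 0.028 (HF5), 0.13 (HF20) and -0.064 (HF75), and HF20 was also 0.13 without the Week 12 array named HF20. Cox7a1 minus Cox7a2 was then 0.16 (HF5), 0.99 (HF20) and 0.79 (HF75).

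On 9 arrays the title contains BA or BAT, and on the other 30 it contains B, B-A or B_A in that place. What these letters stand for is not given in the labels. Of the 9, 7 are among the 8 saturated arrays, so the title and saturation largely cannot be told apart. The exceptions were HFC Day 1 and LFC Day 6, and HFC Week 6 was saturated without the token. With title, diet and time label in the fit, 52.4% of all probes passed, 20.5% higher and 31.8% lower in the titled arrays, with a median of -0.30. Of the 82 members 45 were higher and 3 lower, with a median of 1.11. The split of all probes depended on the scaling. It was 6986 higher and 10842 lower as given, 6965 and 3977 with quantile normalization (median over all probes 0.11, members 46 and 1), and 4820 and 15074 with scaling to probes well above background on all arrays (-0.70, members 34 and 6). With normexp background correction it was 7300 and 20972 (-1.37, members 75 and 2).

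By complex 26 of 35 members of complex I were higher (median 1.54), 3 of 4 of complex II (1.82), 1 of 6 of complex III (0.99), 5 of 17 of complex IV with 3 lower (0.55) and 6 of 16 of complex V (0.65). All 4 genes that are not subunits were higher (1.86). Among the 20 members that were never saturated, 14 were higher and 2 lower (1.69). These 14 include the 4 genes that are not subunits. Among the 62 that were saturated somewhere 31 were higher and 1 lower (1.05).

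The members with the smallest p among those higher were Cox4nb (1.71 ± 0.25 SE, adjusted limma p = 6.76e-05), Cox6b1, the widely expressed subunit 6b of complex IV (2.18 ± 0.37, 0.000145), Atp5s (2.06 ± 0.37, 0.000219), Atp5sl (2.01 ± 0.37, 0.000254) and Ndufb5 of complex I (1.67 ± 0.31, 0.000304). A second probe of Cox4nb, Atp5s and Atp5sl followed the first poorly on the 31 arrays (r = -0.05, 0.18 and 0.20). Without the 8 saturated arrays none of these 5 passed, at 1.04 (Cox4nb), 0.75 (Cox6b1), -0.12 (Atp5s), 0.093 (Atp5sl) and 0.31 (Ndufb5). Lower were Cox8c (-2.73 ± 0.75), Cox4i2 (-1.57 ± 0.52) and Cox6a1 (-1.18 ± 0.41), with adjusted limma p of 0.00454, 0.0145 and 0.0181. These 3 calls were lost or turned under other settings. Cox8c was at -0.64 with quantile normalization (adjusted limma p = 0.41) and 1.34 without the 8 saturated arrays, Cox4i2 at -0.61 (0.174) and 0.30, and Cox6a1 at 0.25 with normexp background correction and -0.15 without the 8 arrays. Cox8c was well above background on 1 of the 9 titled arrays and 5 of the other 30, Cox4i2 on 3 and 8, and Cox6a1 was saturated on 13 arrays. Of the tissue forms and counterparts, Cox7a2 was higher (1.39 ± 0.41, adjusted limma p = 0.00719). Cox7a1 (0.42 ± 0.65), Cox8b (0.69 ± 0.83), Cox6a2 (0.06 ± 1.00) and Cox8a (0.65 ± 0.40) did not pass. Cox7a1 and Cox8a were each saturated on 8 arrays, Cox8b on 7 and Cox7a2 on 6, so their levels there are lower bounds. How far the ceiling held down their differences was not tested.

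Other lists were read from the same fit, where 20.5% of all probes were higher and 31.8% lower in the titled arrays. Brown adipocyte genes were higher in 11 of 15 (median 1.73), general adipocyte genes in 10 of 14 with 1 lower (1.67), citric acid cycle genes in 10 of 14 (1.73) and assembly factors and carriers in 22 of 28 with 1 lower (1.64). Of 14 regulators 7 were higher (1.05), among them the coactivators Ppargc1a (2.10 ± 0.43 SE) and Ppargc1b (3.13 ± 0.57), the receptor Esrra (2.35 ± 0.47), the mitochondrial transcription factor Tfam (1.73 ± 0.36) and Gabpa (0.85 ± 0.25), while Nrf1 had -0.33 ± 0.43. Of 15 muscle genes 1 was higher (1.16). Neutrophil genes were lower in 9 of 9 (-4.66), macrophage genes in 10 of 14 (-1.19), T cell genes in 6 of 8 (-2.37), B cell genes in 4 of 6 (-2.10), erythroid genes in 6 of 6 (-2.83), fibroblast genes in 5 of 8 (-0.93) and endothelial genes in 1 of 6 (-0.63). Of the T cell and B cell genes 0 were well above background on all arrays, and of the neutrophil genes 3 of 9, so their medians include values near the background. Adipoq was higher (2.21 ± 0.49), Ucp1 did not pass (0.67 ± 0.98), Cd68 was lower (-1.17 ± 0.50, adjusted limma p = 0.0494) and Emr1 did not pass (-1.06 ± 0.45, 0.0505). The part of saturation and of cell content in these differences was not tested. In the comparisons of diets and the trends, limma called 0 genes of every one of these 13 lists.

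Leaving out the 8 saturated arrays leaves out 7 of the 9 titled arrays as well. Without them 3 members passed, Ndufb6 (3.65), Ndufv3 (2.90) and Uqcrb (3.68), and 420 probes did, with a median of 0.23 over the members and 0.27 over all probes. In that fit the titled arrays are HFC Day 1 and LFC Day 6, and HFC Day 1 is set against LFC Day 1, where those 3 genes were low. With saturated spots left out and all arrays kept, 23 of 82 members passed, beside 17593 of 34031 probes, a smaller share of the members than of the probes. At single time labels the median difference between titled and other arrays was -0.36 (Day 1), 0.73 (Day 6), 0.15 (Week 9), 1.79 (Week 12), 2.68 (Week 15) and 1.08 (Week 18).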

How the data were processed

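Per the labels, RNA was labelled with Cy3 and scanned, and the submitters' notes name Agilent Feature Extraction 9.1. The file headers name a later version. The deposited processed signal is a spot intensity, background-subtracted within each array by the scanner software. The authors also deposited a table of log2 fold changes, taken at each time label against 1 diet of that time label. It was used for the gene symbols of the probes and to examine the array labels, and its fold changes entered no test.

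Here control spots were left out. The 75th percentile of each array was taken over all remaining spots, those flagged as outliers included. Flagged spots were then left out, log2 of the processed signal was taken minus that percentile, and spots of a probe were averaged. Of 40628 probes, the 34043 well above background on 6 or more arrays were tested. Each gene was read from its brightest probe. Of 23 members with several probes, 27 pairs were compared, of which 13 had r over 0.9 and 4 under 0.5. RefSeq symbols or synonyms matched 83 member symbols, 78 of them by symbol. Groups came from the labels. The array named HF20 at Week 12, whose diet characteristic gives the high fat diet alone, was grouped by its name.

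limma 3.58.1 with statmod 1.5.0 in R 4.3.3 was run with lmFit and eBayes (two-sided, Benjamini-Hochberg over all probes, threshold 0.05). The time label was a block except in the trend over time, which held diet and log2 of the days. For that trend weeks were counted from Day 14, so Day 14 and Week 0 share a value. The limma fits were checked on simulated data. Permutation tests used numpy 2.4.6, pandas 2.3.3 and scipy 1.17.1 in Python 3.11.15, and plots matplotlib 3.10.9. The number of arrays limits the precision. Arrays came from 36 slides and 18 scan dates, each tried as a random block. Other alternatives were the background correction, normalization, scaling, filters, probe choice, array weights, the methods' t-test, left-out time labels and left-out arrays.

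The text names the tissue forms of complex IV and their counterparts, the members with the smallest p in each comparison (at most 5 in each direction where any passed, otherwise 3), and the widest and narrowest spread of each complex. Genes low on LFC Day 1 and LFC Week 18 were chosen after their values were seen. The members and lists were chosen with earlier results of these data known.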

Additional observations from a re-analysis of the deposited data

Results flagged for a closer look

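Of 48 groups of 4 to 10 arrays examined, 12 had 1 array far from the rest, where chance gives about 1 in 20. The groups share arrays and genes, so these counts are not independent. HFC, with 11 arrays, lay outside this size and was not examined. The low values of Cox7a1 (0.38) and Cox8b (-3.05) on HFC Week 12 are therefore not among the 12. On HF20 Week 15, the array with 71.4% of spots marked as outliers, the median shift of all members was -3.84 against -0.20 for the nearest other HF20 array. It was -3.84 (nearest -0.29) for complex I, -4.12 (-0.05) for III, -3.99 (-0.18) for IV and -3.72 (-0.32) for V. The levels there were 1.72 for Cox7a1 (nearest 6.10), 0.79 for Cox7a2 (4.25) and 2.07 for Cox8a (5.46).

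On LFC Day 10, Cox7a1 was at 1.40 (nearest 5.23) and Cox8b at 1.29 (4.23). Cox6a2 was at -6.00 on HF5 Week 9 (nearest 1.25), where it was not well above background. Cox6a1 was at 5.53 on LFC Week 12 (7.48), where 61 members, Cox6a1 among them, were saturated. The causes were not tested.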

How the results depend on the processing

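The absence of called members in the diet comparisons and the dose trend held under every alternative run. Of the values for single members, 763 kept their direction and side of the threshold, 18 lost and 1 gained a call, and 14 changed sign. Among the summary values 721 stayed, 7 moved, 31 changed sign, 2 lost and 5 gained a call. Without the time label as a replicate block, 40 of 82 members and 16106 of 34043 probes were called by title. Alternatives on saturation, brightness, exchanged Day 14 labels and named pairs of arrays were added after seeing the data. Causes were not tested.

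Over all probes, array weights called 24 in HFC minus LFC, 3 in the dose trend and 172 in the trend over time, 1 of them a member. Leaving out the 8 saturated arrays called 13 in HFC minus LFC. For the title, 48 members were called. It was 77 (median 2.34) with normexp, 61 (1.54) with the slide as a random block and 55 (1.95) with brightness as a covariate. It was 23 with saturated spots left out and 3 without the 8 arrays. Without single time labels it ran from 22 (without Week 12) to 51, with 28 without Week 15. The 17828 probes called by title became 10942 with quantile normalization, 28272 with normexp, 3937 with brightness as a covariate and 420 without the 8 arrays. They became 17593 with saturated spots left out. Without single time labels they became 10312 (Week 9), 10067 (Week 12), 12203 (Week 15) and 15836 (Week 18, where 51 members were called).

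Member medians, which carry no test, turned sign as well. HF5 minus HFC was -0.28 and HF75 minus HFC -0.30 with normexp, and HF20 minus HFC was 0.63 with array weights, 0.16 with the other scaling, 0.17 without arrays with over 10% of outlier spots and 0.052 without the block. HF75 minus HFC was -0.053 without those arrays and -0.023 without LFC Day 10 and HFC Week 12. The other turns stand beside the results.

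For single members, HF20 minus HFC was 0.22 for Cox7a2l and 0.22 for Atp5g3 with array weights. Atp5g3 was 0.092 without arrays with over 10% of outlier spots and ran from -0.69 to 0.13 without single time labels. HFC minus LFC was -0.12 for Uqcrb without LFC Day 1 and Week 18. The dose slope of Atp5b was -0.015 both with saturated spots left out and without the 8 arrays, where that of Cox4i2 was -0.17. The title difference without the 8 arrays was -0.12 for Atp5s, 1.34 for Cox8c and 0.30 for Cox4i2. With brightness as a covariate it was 0.041 for Cox4i2 and 0.28 for Cox6a1, and Cox6a1 was 0.25 with normexp.

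No pair of tissue form and counterpart passed a test. Without the 8 arrays, Cox6a2 minus Cox6a1 was 1.12 (HFC minus LFC), 1.64 (HF5), 1.40 (HF75) and -0.84 (title), Cox7a1 minus Cox7a2 was 0.34 (title), and Cox8b minus Cox8a was 0.69 (HFC minus LFC) and -0.39 (HF20). Without LFC Day 10 and HFC Week 12, HFC minus LFC was 0.67 for Cox6a2 minus Cox6a1 and 0.43 for Cox8b minus Cox8a, and HF75 was -0.064 for the latter. With quantile normalization, Cox6a2 minus Cox6a1 was 0.036 (HF5) and 0.43 (HF75), and Cox8b minus Cox8a was 0.035 (title). Without single time labels, Cox6a2 minus Cox6a1 ran from -0.54 to 0.85 (HFC minus LFC), -1.86 to 0.64 (HF5), -2.32 to 0.11 (HF20) and -1.25 to 0.65 (HF75), and Cox8b minus Cox8a from -0.54 to 0.89 (HFC minus LFC), -0.064 to 1.74 (HF75) and -0.76 to 0.39 (title).

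Pearson's r of Cox6a1 with Ucp1 was -0.18 with quantile normalization and 0.20 with the mean of probes. With Ckm, Cox6a1 gave -0.33, Cox7a1 0.44 and Cox8a 0.42 with quantile normalization. Without the titled arrays Cox6a1 gave 0.066 and Cox7a1 0.44, and without the 8 arrays 0.26 and 0.46. Cox7a2 gave 0.32 with outlier spots kept.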

Other observations

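In the deposited table of log2 fold changes, 1 diet at each time label stands at 0 throughout. This was LFC at Day 1, 6 and 10 and at every week with an LFC array, but at Day 14 it was HFC, with 100% of its rows at 0. With the LFC and HFC labels exchanged at Day 14, limma called 0 members in HFC minus LFC and in the trend over time, as with the labels as given. At an unadjusted limma p under 0.05 there were then 0 and 19 members.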
